A study of Sus scrofa with 16 samples.

Results

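The genes described here are POMC, the hormone precursor gene of the corticotroph cells of the pituitary, and the 5 genes taken up beside it: ENSSSCG00000016900, TBX19, CRHR1, NR3C1 and PCSK1. They are 6 of the 25880 genes in the count table. POMC and ENSSSCG00000016900 were taken by their gene IDs, and NR3C1 by its symbol in the deposited comparison of the groups, which together made 3 genes found by the rule. The symbols of TBX19, CRHR1 and PCSK1 were matched through a reference gene table instead, which gave the other 3. POMC and ENSSSCG00000016900 were chosen by their CPM in these same pigs, so their group differences are a description and carry no test. All 6 passed the expression filter, which kept 13621 genes.

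RNA came from whole pituitaries of 16 unrelated Złotnicka White gilts, young females of a native Polish breed, labelled 180 days old. In 8 of them feed conversion, the feed eaten per unit of weight gained, was low (LFC), and in 8 it was high (HFC). All were kept on 1 test station with the same feed and housing, came from different farms and were slaughtered at a set body weight, and the labels name no treatment in either group. Although the label gives all the same age, by the study's animal data HFC pigs took longer to reach that weight, so group and age at slaughter cannot be told apart. In the same data HFC pigs also gained less per day, and had more ham fat and a lower share of meat in the carcass. Group cannot be told apart from growth or body fat either. Every pig was 1 library of a whole gland, so each library mixed the anterior, intermediate and posterior lobes.

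Corticotrophs of the anterior lobe and melanotrophs of the intermediate lobe both make proopiomelanocortin, the product of POMC. In corticotrophs the convertase made from PCSK1 cuts it to corticotropin (ACTH), which drives cortisol release by the adrenal, and in melanotrophs the convertase made from PCSK2 cuts further, to alpha-melanocyte-stimulating hormone and beta-endorphin. TBX19 (T-pit) is the transcription factor that switches on POMC in both cell types, and PAX7 selects the melanotroph identity. Corticotropin-releasing hormone acts on corticotrophs through its receptor CRHR1, cortisol feeds back through the glucocorticoid receptor NR3C1, and dopamine restrains melanotrophs through DRD2.

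The counts of a pig summed to 6010629 at the least and 11794256 at the most, and the group medians were 7803047 (LFC) and 9027332 (HFC). Levels are given as CPM, the counts of a gene relative to the TMM-scaled size of the library, which do not account for transcript length and are compared between pigs only. In a whole gland, fewer cells of a type and less RNA per cell cannot be told apart. The markers of corticotrophs and melanotrophs (POMC, TBX19, CRHR1, AVPR1B, PAX7, PCSK2, DRD2) were counted in every pig, 7 of 7.

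POMC (ENSSSCG00000021155, chromosome 3, 113661004 to 113670624, Sscrofa11.1) was higher in LFC pigs. Its level in LFC pigs ran from 15515 CPM through a median of 29243 to 83136, and in HFC pigs from 8587 through 14547 to 25685. The ranges overlapped, but all 8 HFC pigs were below the LFC median, 5 HFC pigs were below every LFC pig, and 5 LFC pigs were above every HFC pig. The mean was 36014 ± 22458 CPM (SD, n = 8) in LFC pigs and 15365 ± 5006 CPM (SD, n = 8) in HFC pigs, a ratio of 2.34. The fitted log2 fold change, HFC against LFC, was -1.23 with an SE of 0.31.

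Between the lowest pig, HFC 3, and the highest, LFC 3, the POMC level differed 9.68-fold. The pig LFC 3 stood apart from the rest of its group at 83136 CPM, since the next pigs, LFC 2 and LFC 6, had 46767 and 45851 CPM. Without LFC 3 the log2 fold change was -0.91, and over all single pigs left out it lay between -1.37 and -0.91. The lowest LFC pig, LFC 1 at 15515 CPM, lay below HFC 7, HFC 4 and HFC 8, which had 25685, 16864 and 17443 CPM. Both groups were therefore spread widely within themselves, LFC pigs more so.

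**Figure D1:**
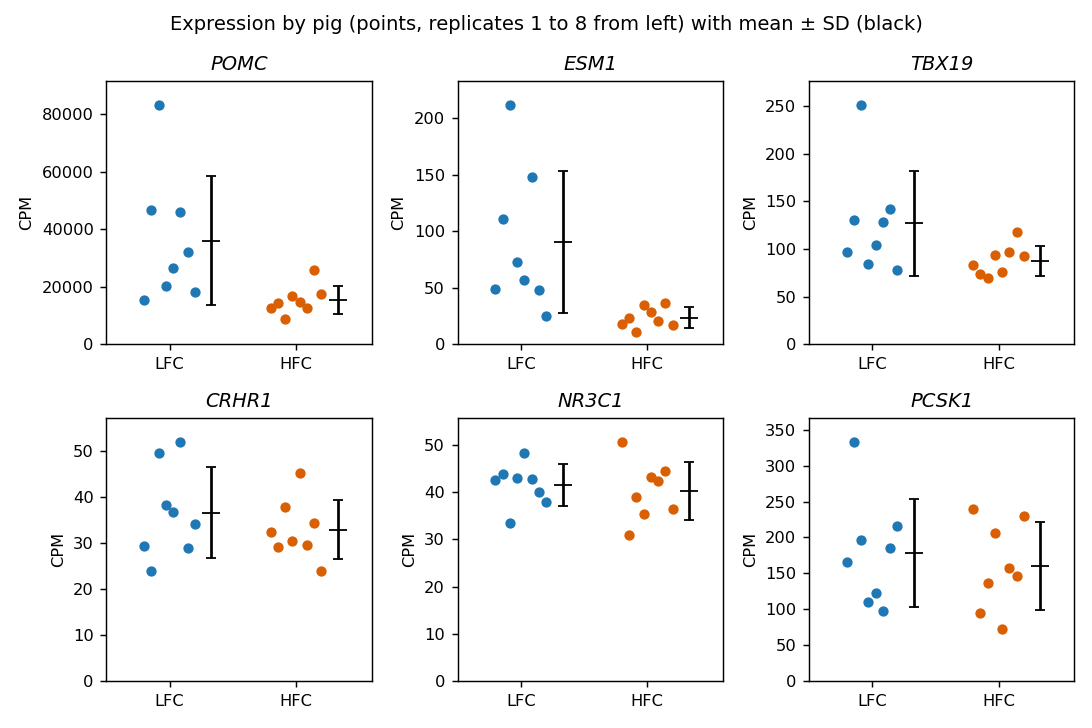
Level of POMC, ESM1, TBX19, CRHR1, NR3C1 and PCSK1 in each pig, in CPM on linear axes that start at 0 and differ between panels. Each point is 1 pig, 8 LFC and 8 HFC, and the black marks give the mean and the SD. POMC and ESM1 show the LFC points mostly above the HFC points, with LFC 3 far above the rest in POMC (83136 CPM), while the points of CRHR1, NR3C1 and PCSK1 overlap throughout.

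ENSSSCG00000016900 has no symbol in the deposited comparison. The reference gene table pairs it with ESM1 (chromosome 16, 34184255 to 34193877, Sscrofa11.1, RefSeq), which encodes endocan, a proteoglycan secreted by endothelial cells. By that name it is not a corticotroph gene, and it stands here by its gene ID. Its level in LFC pigs ran from 24.9 CPM through a median of 64.6 to 212, and in HFC pigs from 10.6 through 21.9 to 36.3. Of the LFC pigs, 7 were above every HFC pig, with LFC 8 as the exception, and 5 HFC pigs were below every LFC pig. The mean was 90.3 ± 63.0 CPM (SD, n = 8) against 23.6 ± 8.94 CPM (SD, n = 8), a ratio of 3.83, and the log2 fold change was -1.94 with an SE of 0.37. With single pigs left out it lay between -2.05 and -1.60.

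TBX19 (ENSSSCG00000006299, chromosome 4, 82663121 to 82699261, Sscrofa11.1, RefSeq), the activator of POMC transcription, did not pass the test between the groups. It ran from 78.3 CPM through a median of 116 to 251 in LFC pigs and from 69.4 through 87.6 to 117 in HFC pigs. The ranges overlapped, with 4 LFC pigs above every HFC pig and 3 HFC pigs below every LFC pig. The log2 fold change was -0.53 with an SE of 0.20 (edgeR's quasi-likelihood test, Benjamini-Hochberg adjusted p = 0.413). Without LFC 3, whose 251 CPM was far above the next LFC pig at 142, the log2 fold change was -0.30.

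CRHR1 (ENSSSCG00000017313, chromosome 12, 17251361 to 17306308, Sscrofa11.1, RefSeq), the receptor through which corticotropin-releasing hormone raises POMC output, had nearly the same range in both groups. It ran from 23.9 CPM through 35.4 to 52.1 in LFC pigs and from 24.0 through 31.4 to 45.3 in HFC pigs. The log2 fold change was -0.16 with an SE of 0.16 (edgeR, Benjamini-Hochberg adjusted p = 0.641).

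NR3C1 (ENSSSCG00000014401, chromosome 2, 144822078 to 144956456, Sscrofa11.1), the receptor of cortisol feedback, varied least of the 6 genes, with 1.64-fold between the highest and the lowest pig. In LFC pigs it lay between 33.6 and 48.3 CPM with a median of 42.8, and in HFC pigs between 30.9 and 50.7 CPM with a median of 40.7. The HFC range enclosed the LFC range, and the log2 fold change was -0.04 with an SE of 0.10 (edgeR, Benjamini-Hochberg adjusted p = 0.859).

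PCSK1 (ENSSSCG00000014169, chromosome 2, 103004794 to 103050707, Sscrofa11.1, RefSeq), the convertase that makes ACTH, varied 4.62-fold over the pigs. It ran from 98.1 CPM through 176 to 334 in LFC pigs and from 72.2 through 152 to 239 in HFC pigs. The groups overlapped over most of their range, and the log2 fold change was -0.15 with an SE of 0.26 (edgeR, Benjamini-Hochberg adjusted p = 0.795). Its sign turned to 0.04 without LFC 2, the pig with the highest level.

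Of these 4 members with a test, 0 of 4 were called at the 0.05 threshold on adjusted p together with a 1.3-fold change, and edgeR called 0% of all 13621 genes by that rule. By unadjusted p of at most 0.05, TBX19 alone passed, 1 of 4, and 11.4% of all genes did. Without LFC 3, TBX19 did not pass that threshold either (edgeR, unadjusted p = 0.0586). DESeq2 called 29 genes in all, and TBX19, CRHR1, NR3C1 and PCSK1 were not among them.

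The next question was which of these genes followed POMC from pig to pig. A family of 12 genes was correlated with POMC on log2(CPM + 1) over the 16 pigs. All but PRL, the lactotroph hormone, were taken for a known role beside POMC. Permutation tests of 100000 resamples were used, with Benjamini-Hochberg adjustment over the 12. Over all pigs TBX19, PCSK2 and PAX7 passed the test, each with a positive r in both groups, although among HFC pigs alone only PCSK2 passed after adjustment. CRHR1, NR3C1 and PCSK1 did not pass the test.

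TBX19 had a Pearson's r of 0.909 with POMC (permutation p = 1e-05, the smallest that the resamples can give, adjusted p = 0.00012). Spearman's rho was 0.815 (permutation p = 0.00025, adjusted p = 0.0015). Among LFC pigs r was 0.914 (exact permutation p = 0.00196, adjusted p = 0.0235, n = 8), and among HFC pigs it was 0.790 (exact permutation p = 0.0216, adjusted p = 0.0864, n = 8), and after centring both genes within the groups it was 0.886. The relation did not rest on the pigs with the most POMC, since without LFC 3 and LFC 2, which lay farthest from the POMC median of all 16, r was 0.831. With any 1 pig left out r stayed between 0.858 and 0.927.

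POMC over TBX19 was not constant over the pigs. The quotient of their CPM, looked at after their values were seen and not tested, ran from 161 through a median of 245 to 358 in LFC pigs and from 124 through 185 to 219 in HFC pigs. The lowest, HFC 3, was also the pig with the least POMC and the least TBX19, and the highest, LFC 2 and LFC 6, at 358 and 357, came next after LFC 3 in POMC.

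**Figure D2:**
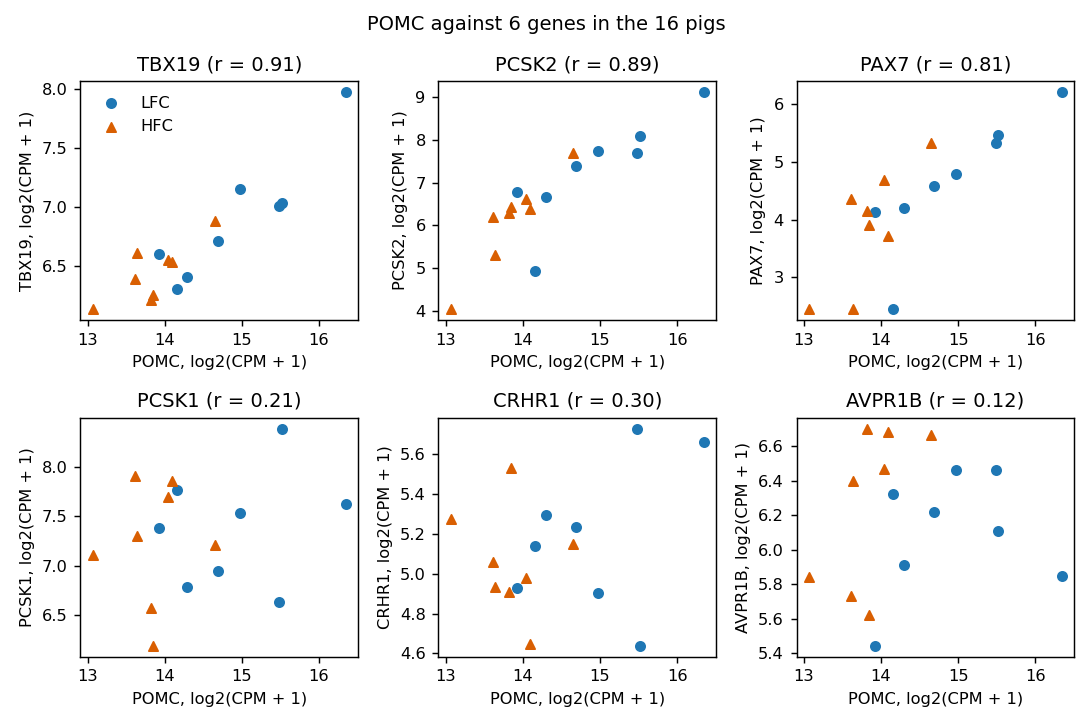
Level of each of 6 genes against the level of POMC over the 16 pigs, as log2(CPM + 1) on both axes, 1 point per pig and 1 colour per group. TBX19 (r = 0.909), PCSK2 (r = 0.886) and PAX7 (r = 0.812) rise with POMC in LFC pigs (circles) and HFC pigs (triangles) alike, whereas PCSK1 (r = 0.208), CRHR1 (r = 0.302) and AVPR1B (r = 0.117) scatter.

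PCSK2 (ENSSSCG00000007083), the convertase of melanotrophs, had an r of 0.886 with POMC (permutation p = 2e-05, adjusted p = 0.00012) and a rho of 0.868 (permutation p = 2e-05, adjusted p = 0.00024). Among LFC pigs r was 0.850 (exact permutation p = 0.00655, adjusted p = 0.0262, n = 8), and among HFC pigs it was 0.942 (exact permutation p = 0.00226, adjusted p = 0.0271, n = 8). Without LFC 3 and LFC 2 it was 0.818. Its level ran from 29.6 CPM through 187 to 559 in LFC pigs and from 15.3 through 80.0 to 207 in HFC pigs, a 36.4-fold span over all pigs. Against the 4.62-fold span of PCSK1, PCSK2 was the more variable of the convertases. Between the groups its log2 fold change was -1.29 with an SE of 0.48 (edgeR, Benjamini-Hochberg adjusted p = 0.413), which did not pass.

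PAX7 (ENSSSCG00000034627), the melanotroph selector gene, had an r of 0.812 with POMC (permutation p = 0.00017, adjusted p = 0.00068) and a rho of 0.794 (permutation p = 0.00059, adjusted p = 0.00236). Within the groups r was 0.862 for LFC (exact permutation p = 0.00593, adjusted p = 0.0262, n = 8) and 0.80 for HFC (exact permutation p = 0.0172, adjusted p = 0.0864, n = 8). It fell to 0.706 without LFC 3 and LFC 2. The level ran from 4.48 CPM through 24.8 to 73.5 in LFC pigs and from 4.46 through 15.4 to 39.4 in HFC pigs, and the log2 fold change was -0.84 with an SE of 0.46 (edgeR, Benjamini-Hochberg adjusted p = 0.46). Without LFC 3 it was -0.50, and with single pigs left out it ran from -1.15 to -0.50.

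The same 3 pigs were lowest in both melanotroph genes. LFC 8 had 4.48 CPM of PAX7 and 29.6 CPM of PCSK2, HFC 3 had 4.46 and 15.3 CPM, and HFC 6 had 4.47 and 38.2 CPM. Their POMC levels were 18280, 8587 and 12711 CPM, at positions 8, 16 and 14 of the 16 pigs. The quotient of POMC over PCSK2, compared between pigs only, was 617 in LFC 8, 560 in HFC 3 and 332 in HFC 6. Its median was 164 in LFC pigs and 180 in HFC pigs, a comparison made after the values were seen and not tested. The quotient of PCSK2 over PCSK1 ran from 0.137 through 1.03 to 2.85 in LFC pigs and from 0.112 through 0.415 to 1.41 in HFC pigs, with its lowest values in the same LFC 8 and HFC 3.

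CRHR1 had an r of 0.302 with POMC (permutation p = 0.256, adjusted p = 0.545) and a rho of 0.124 (permutation p = 0.65, adjusted p = 0.78), and its r without LFC 3 was 0.039. PCSK1 had an r of 0.208 (permutation p = 0.44, adjusted p = 0.589) and a rho of 0.144 (permutation p = 0.591, adjusted p = 0.78), and its r turned to -0.144 without LFC 3 and LFC 2. NR3C1 had an r of -0.077 (permutation p = 0.778, adjusted p = 0.849) and a rho of 0.071 (permutation p = 0.795, adjusted p = 0.868). Its sign was not stable, as it was 0.003 with total library size and 0.225 without LFC 3, and 0.179 without LFC 3 and LFC 2. Whether these values differ from those of TBX19, PCSK2 and PAX7 was not tested.

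Among the other genes of the family, DRD2, the dopamine receptor of melanotrophs and lactotrophs, had an r of -0.049 with POMC over all pigs (permutation p = 0.858, adjusted p = 0.858). Within LFC pigs r was 0.812 (exact permutation p = 0.0144, adjusted p = 0.0432, n = 8) and within HFC pigs -0.186 (exact permutation p = 0.67, adjusted p = 0.894, n = 8), and this difference was not tested. SCG5, the chaperone of the PCSK2 product, had an r of 0.292, AVPR1B, the vasopressin receptor of corticotrophs, 0.117, NEUROD1, a transcription factor of developing corticotrophs, -0.208, and CPE, the carboxypeptidase that trims cut hormones, -0.261. PRL, the lactotroph hormone, had an r of -0.452 (permutation p = 0.078, adjusted p = 0.234) and a rho of -0.594 (permutation p = 0.0178, adjusted p = 0.0535). Without LFC 3 its r was -0.670 (permutation p = 0.00669, adjusted p = 0.0201), but centred on the group means it was 0.104.

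All genes were then ranked by their r with POMC over the 16 pigs, as a description with no test. The points share libraries, depth and the group difference. The median r of the 13621 tested genes was 0.014, and 17 of them, 0.125%, had an r of at least 0.8 with POMC left out of the count. These included 3 of the 12 genes of the family, TBX19 at rank 4, PCSK2 at rank 7 and PAX7 at rank 15.

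**Figure D3:**
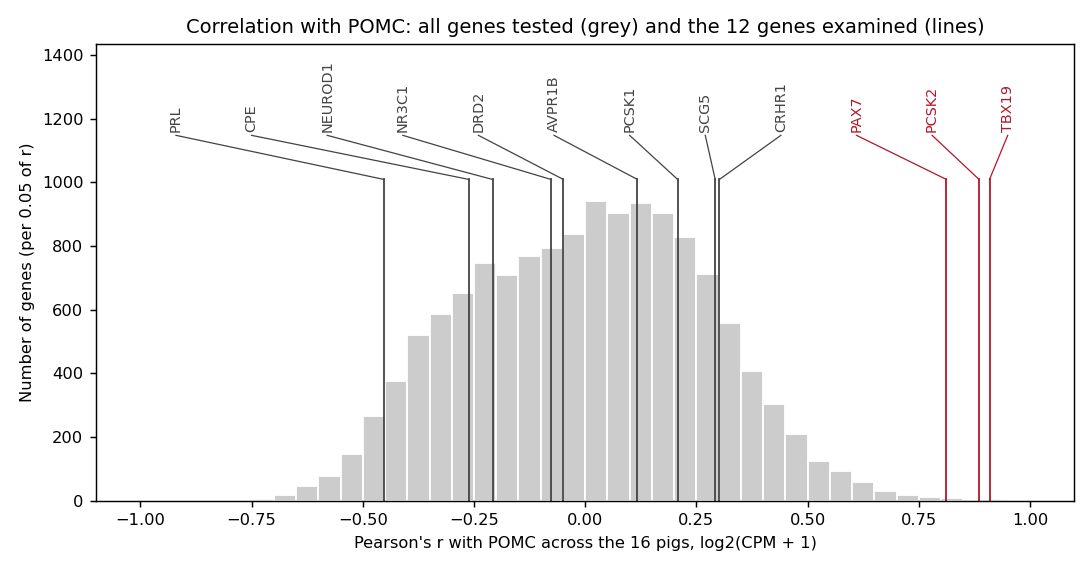
Histogram of Pearson's r with POMC for every other tested gene over the 16 pigs, with the number of genes per bin on the y axis and the 12 genes of the family as lines, red where the adjusted p is at most 0.05. The bulk of genes centres near 0 (median 0.014), TBX19, PCSK2 and PAX7 lie in the upper tail at 0.812 to 0.909, and CRHR1, PCSK1 and NR3C1 lie within the bulk.

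The 10 genes most like POMC were led by 2 without a symbol, ENSSSCG00000034557 (r = 0.927) at a mean level of 6.42 CPM and ENSSSCG00000033041 (r = 0.925) at 513 CPM. ESM1 (r = 0.915) and TBX19 (r = 0.909) followed. POMC and ESM1 were both chosen by their CPM in these same pigs, so part of the rank of ESM1 can come from that choice. After centring within the groups its r was 0.847. CASR, the calcium-sensing receptor, had an r of 0.908, with 0.952 within LFC pigs and 0.912 within HFC pigs. It ran from 12.6 CPM through 32.1 to 74.1 in LFC pigs and from 9.58 through 19.4 to 35.6 in HFC pigs. GPR26, an orphan G protein-coupled receptor, had an r of 0.907 and lower counts, with medians of 7.93 CPM in LFC pigs and 2.12 in HFC pigs.

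PCSK2 came next, then PIP5K1B (r = 0.879), a kinase that makes a membrane phosphoinositide. DDC (r = 0.846), the decarboxylase of dopamine and serotonin synthesis, and LHX5 (r = 0.840), a homeobox transcription factor, had means of only 1.49 and 2.71 CPM. At the other end, the 5 lowest values of r belonged to CSMD3 at -0.812, RHOF at -0.810, ENTREP2 at -0.805, PKLR, the pyruvate kinase of liver and red cells, at -0.752, and ABCA5, an ABC transporter, at -0.750. After centring within the groups the r of PKLR was -0.537 and that of CASR 0.939.

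ESM1 is known from endothelial cells, so it was set beside the markers of blood and endothelium. Its r with POMC was 0.915 over all pigs, 0.860 within LFC pigs and 0.803 within HFC pigs, a description with no test. With PCSK2 its r was 0.846 and with PAX7 0.789. Over all pigs the r of ESM1 with the endothelial markers PECAM1, CDH5 and VWF was 0.310, -0.336 and -0.394, and with the globin gene HBB 0.477. For these 4 genes in the same order it was 0.400, -0.526, -0.266 and 0.086 among LFC pigs, and 0.796, 0.554, 0.332 and 0.129 among HFC pigs. The r with PECAM1 among HFC pigs was thus close to that with POMC, and the sign of CDH5 and VWF turned between the groups, a difference that was not tested. Per 1000 CPM of POMC, ESM1 ran from 1.36 through 2.46 to 3.61 CPM in LFC pigs and from 0.963 through 1.52 to 2.06 in HFC pigs, a quotient looked at after its values were seen.

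Of the 5 markers of blood and endothelium 4 were matched, all but HBA1, and none of them was at 0 in any pig. Their sum ran from 377 to 1490 CPM in LFC pigs and from 183 to 1125 CPM in HFC pigs. By the means, HBB was its largest part, with 582 CPM in LFC pigs and 281 in HFC pigs. The endothelial markers had means of 50.5 and 52.4 CPM (PECAM1), 15.2 and 20.4 (CDH5) and 21.4 and 36.9 (VWF) in the same order. By edgeR's unadjusted p, at the 0.05 threshold, 2 of 4 were higher in HFC pigs and 0 of 4 in LFC pigs, namely VWF with a log2 fold change of 0.78 and CDH5 with 0.43. Of all tested genes 7.03% were higher in HFC pigs and 4.41% in LFC pigs at that threshold, which is also the background of the marker counts that follow. PECAM1 differed by 0.06 and HBB by -1.05. Neither VWF nor CDH5 was called after adjustment. The part of these cells in the level of ESM1 was not tested.

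Markers of other pituitary cells were examined beside the POMC difference in the same way. The lactotroph and somatotroph markers, 4 of 4 matched, summed to between 59473 and 91723 CPM in LFC pigs and to between 74307 and 175080 CPM in HFC pigs. PRL alone of these passed an unadjusted p of at most 0.05, higher in HFC pigs by 1.27 on the log2 scale. The 5 markers of posterior lobe glia and myelin summed to 135 to 5800 CPM in LFC pigs and to 109 to 3181 CPM in HFC pigs, with 0 of 5 past the unadjusted threshold in edgeR. RAX was at 0 in 1 HFC pig, HFC 3, which also had the least POMC. The sum was highest in LFC 5, HFC 6, LFC 1 and LFC 7, in that order, with POMC at 26309, 12711, 15515 and 32178 CPM. It was lowest in HFC 3, HFC 8, LFC 6 and LFC 2, in that order, with POMC at 8587, 17443, 45851 and 46767 CPM. The gonadotroph and thyrotroph markers, 5 of 7 matched (LHB and GNRHR were not), summed to 19837 to 61916 CPM in LFC pigs and to 13438 to 44410 in HFC pigs, with 1 of 5, CGA, higher in LFC pigs at the unadjusted threshold. The stem and folliculostellate markers, 2 of 4 matched (SOX2 and S100B were not), and the 5 macrophage markers had 0 past it. The part of these cells in the POMC difference was not tested, and r with POMC was computed again with library sizes that leave out the counts of POMC and PRL, which gave 0.908 for TBX19 and 0.886 for PCSK2.

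The wider pathway was described with 5 lists of genes, without a test of any list. In none of them was a gene called between the groups, by edgeR or by DESeq2. The background at the unadjusted threshold is again 7.03% and 4.41%, and the median log2 fold change of all genes was -0.01.

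The list of corticotroph transcription factors held 19 genes, among them the cell cycle genes RB1, CDKN1B and CDKN1C, and 16 were tested. At the unadjusted threshold 0 were higher in HFC pigs and 1, TBX19, in LFC pigs, and the median log2 fold change of the list was 0.02, with the other sign in 7 of 24 alternatives. PAX7 was next on the LFC side at -0.84. RB1, the retinoblastoma cell cycle gene, with 0.26, and STAT3, the mediator of leukaemia inhibitory factor signals in corticotrophs, with 0.21, had the smallest p on the HFC side and did not pass. PITX1 was not matched to a gene and was not analysed here, and LHX4 had too few counts to be tested.

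The list of receptors for signals that regulate corticotrophs held 24 genes, among them the binding protein gene CRHBP and the receptor accessory genes MRAP and MRAP2. Of the 24, 17 were tested, 4 of which were higher in HFC pigs and 1 in LFC pigs at the unadjusted threshold, with a list median of 0.17. INSR, the insulin receptor, had a log2 fold change of 0.49 (edgeR, Benjamini-Hochberg adjusted p = 0.413) and EGFR, the epidermal growth factor receptor, of 0.53 (adjusted p = 0.413). The others were DRD2 at 0.38 and MC3R, a melanocortin receptor named after its values were seen, at 0.59. IL6R, the interleukin-6 receptor, was the gene on the LFC side, at -0.42 (edgeR, Benjamini-Hochberg adjusted p = 0.413), and all 8 HFC pigs were below its LFC median. GHSR, MC4R and MRAP were not matched and were not analysed here, and CRHR2, AVPR1A, OPRM1 and MC5R had too few counts.

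All 36 genes of cAMP and calcium signalling below CRHR1 were tested. At the unadjusted threshold 4 were higher in HFC pigs and 0 in LFC pigs, and the list median was 0.08. CACNA1D, a calcium channel subunit, with 0.67 (edgeR, Benjamini-Hochberg adjusted p = 0.413), and JUN, an immediate early transcription factor, with 0.37 (edgeR, Benjamini-Hochberg adjusted p = 0.413), had the smallest p. The other 2, named after their values were seen, were ADCY6, an adenylyl cyclase, with 0.24 and CRTC3, a coactivator of CREB, with 0.27. On the LFC side PRKAR1B and PRKACB, subunits of protein kinase A, had -0.32 and -0.21.

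Prohormone processing was covered by 15 genes, 14 of them tested, with CTSL as the exception. At the unadjusted threshold 2 were higher in HFC pigs, VGF, a granule protein and peptide precursor, with 0.76 and FURIN, a convertase of the secretory pathway, with 0.25, and 1 in LFC pigs, PCSK2. The list median was 0.15, above that of all genes, whereas PCSK2 and SCG5 had -1.29 and -0.15.

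Glucocorticoid feedback was covered by 24 genes, all tested, with 2 higher in HFC pigs, 0 in LFC pigs and a median of 0.05. The 2 were NCOR1, a corepressor of nuclear receptors, with 0.46 and NCOA2, a coactivator, with 0.43. ANXA1, a mediator of glucocorticoid action on the pituitary, and SGK1, a kinase induced by glucocorticoids, had the smallest p on the LFC side, with -0.39 and -0.36, and did not pass.

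**Figure D4:**
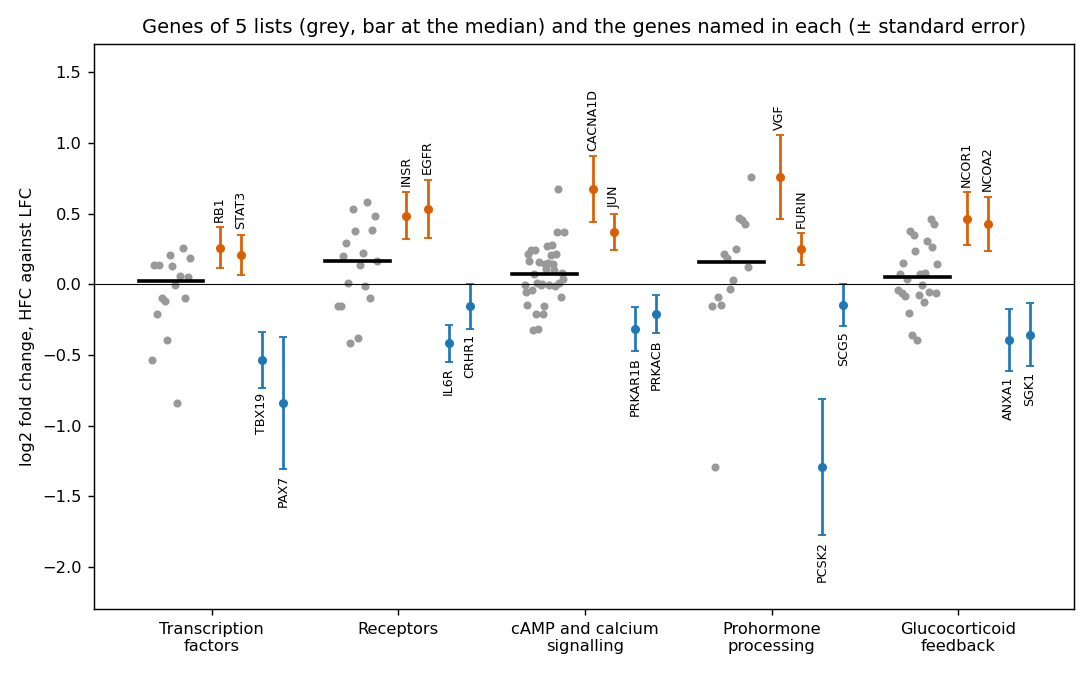
Log2 fold change, HFC against LFC, of every tested gene in the 5 pathway lists, 1 grey point per gene with a bar at the list median, and beside them the named genes with their SE, orange above 0 and blue below. The medians run from 0.02 to 0.17, and PCSK2 (-1.29), PAX7 (-0.84) and TBX19 (-0.53) lie below the other genes of their lists.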

How the data were processed

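After trimming, the authors aligned reads to the Sscrofa11.1 assembly with RSEM and STAR, which the submitters' processing notes also name, and deposited counts, whole numbers of reads per Ensembl gene and pig, without normalization. Libraries did not keep the strand, so reads of overlapping genes cannot be told apart. The deposited comparison of the groups holds for each gene a signal (group means of scaled counts), a ratio of the means, its log2 and a p-value with its adjusted value. None of these was used, only its symbols and coordinates. The paper names DESeq2 for that comparison, while its layout is that of the older DESeq.

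Groups came from the labels, where the tag is named shear force but its values are low_FCR and high_FCR. Replicate numbers follow the order of the samples within each group. No column of counts lacked a label. Symbols came from the deposited comparison, from the reference gene tables by gene ID, or, for 304 genes including POMC, by position, where a gene overlapped at least 50% of both spans. Of 8982 genes with a symbol in both tables, 96.2% had the same. Counts of 18963 genes were above 0 in at least 1 pig. No 2 pigs of a group were near copies, with a chi-square per degree of freedom between 11.8 and 90.2.

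In R 4.3.3 with edgeR 4.0.16, counts were TMM scaled, filtered by edgeR's expression filter (13621 genes) and compared between 8 HFC and 8 LFC pigs by quasi-likelihood F tests with Benjamini-Hochberg adjustment, with calls at the paper's thresholds of 0.05 and a fold change of 1.3. A positive log2 value is higher in the HFC pigs. Correlations used log2(CPM + 1), two-sided permutation tests of 100000 resamples over 16 pigs, and exact ones within groups of 8. Pigs are separate animals. The scripts were tested on simulated data. Python 3.11.15, numpy 2.4.6, scipy 1.17.1, pandas 2.3.3 and matplotlib 3.10.9 served for the rest. Alternatives were DESeq2 1.42.0, limma voom 3.58.1 with sample quality weights, other scalings, filters and pseudocounts, a replicate block, centring on group means, and each pig left out in turn.

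Members, lists and tests were chosen with earlier results of these data known. Named are the members, the 12 genes of the correlation family, the 2 tested genes of each list that had the smallest p on either side, and the 10 genes with the highest and the 5 with the lowest r with POMC. MC3R, ADCY6, CRTC3 and the marker genes singled out (VWF, CDH5, PECAM1, HBB, CGA, RAX) were named after their values were seen. The Puławska pigs were not analysed here, and sequences of the members were not used here. An item of the lists is not reported here.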

Additional observations from a re-analysis of the deposited data

Results flagged for a closer look

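POMC, ESM1 and the genes of the correlation family were examined for outliers in LFC and HFC pigs separately, in 28 groups of 8 pigs. The highest and the lowest pig were compared with the rest by Dixon's gap test at its 95% level. The test was run on CPM and not on the log2 scale of the correlations. For normally distributed values it flags about 1 in 20 groups by chance, or 1.4 of the 28. CPM within a group can be skewed towards high values, so that rate need not hold here and an excess of flags cannot be read from it. Single pigs stood apart in 4 groups. In the LFC pigs, LFC 3 was the highest in POMC with 83136 CPM, against 46767 CPM in the next pig. The same pig was the highest in TBX19 with 251 CPM, against 142 CPM in the next, and in PCSK2 with 559 CPM, against 272 CPM in the next. In the HFC pigs, HFC 7 was the highest in PCSK2 with 207 CPM, against 97.4 CPM in the next, and it was also the highest HFC pig in POMC with 25685 CPM. These genes are correlated across the pigs, so the 4 flags are not independent of each other. The other named genes were not put through the gap test, and some of them also had a pig far above the next. LFC 3 was the highest in CASR with 74.1 CPM, against 35.8 CPM in the next LFC pig. In GPR26 it had 26.1 CPM, against 9.46 CPM in the next LFC pig. The highest HFC pig in HBB had 1033 CPM, against 352 CPM in the next.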

How the results depend on the processing

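Of 376 settings of the results that answer a comparison, 368 kept the direction and the side of the threshold, 6 reversed and 2 moved. For POMC and ESM1, which carry no test, this covers the direction and a shift under 1 SD between pigs. Of 719 settings of single named genes 710 kept both, and the list medians, in 120 settings, moved by less than the median SE of their genes, that of the transcription factors from -0.04 to 0.05 with the other sign in 7 of 24. DESeq2 called 29 genes between the groups, 19 of them higher in the HFC pigs, where edgeR, voom and every other alternative called 0, and with each pig left out the count stayed at 0. The smallest Benjamini-Hochberg adjusted p of edgeR's main fit was 0.372. Keeping the side of the threshold was therefore nearly given for the fold changes and the list counts. DESeq2's adjusted p for PRL was 0.00876 (log2 fold change 1.27). With a pig left out, the log2 fold change ran from -1.37 to -0.91 for POMC, from -2.05 to -1.60 for ESM1, from -0.60 to -0.30 for TBX19, from -0.23 to -0.05 for CRHR1, from -0.10 to 0.03 for NR3C1, from -0.26 to 0.04 for PCSK1 and from -0.04 to 0.31 for NEUROD1, and r with POMC from -0.216 to 0.225 for NR3C1, from -0.251 to 0.221 for DRD2 and from -0.670 to -0.341 for PRL. NR3C1 changed sign without HFC 2 or HFC 8 (0.0262 and 0.00188), and in r without LFC 3 or HFC 1 (0.225 and 0.0385) and with total library size (0.00315). PCSK1 changed sign without LFC 2 (0.0389) and NEUROD1 without HFC 8 (-0.0417), and the r of DRD2 without HFC 2 or HFC 3 (0.0238 and 0.221). Centred on group means, r with POMC was 0.0729 for CPE, 0.384 for DRD2 and 0.104 for PRL. Among genes of at least 10 CPM, 6 of the 10 most like POMC remained, since genes under that level were left out. The causes of the other changes were not tested.

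The replicate numbers do not pair the pigs: same-numbered pigs correlated between -0.343 and 0.374, over 0.1 in 3 of 8 pairs, and 0 LFC pigs correlated best with their own number. With the replicate block, 0 genes were called by edgeR (1404 at an unadjusted p of at most 0.05, against 1559 without it), the log2 fold change was -1.04 for POMC, -1.68 for ESM1, -0.45 for TBX19, -0.14 for CRHR1, -0.05 for NR3C1 and -0.14 for PCSK1, and r with POMC was 0.930 for TBX19, 0.968 for PCSK2, 0.965 for PAX7 and 0.101 for DRD2, which changed sign. DDC, LHX5, PKLR, ENTREP2, CSMD3 and, in the correlation family, NEUROD1 averaged under 3 CPM, so their correlations rest on few reads. The same holds for the log2 fold change of NEUROD1.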
